A study of Mus musculus with 2 samples.

Results

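Interferon-stimulated genes are the genes that cells switch on when interferon reaches its receptors, and 39 of them were followed here across the cell types of the mouse eye cup after an oxidant injury. They were taken by name (the sensors, transcription factors and effectors of the response), and all 39 matched 1 row each of the 27998 gene rows. The data are droplet RNA counts of cells from the retinal pigment epithelium (RPE), the pigmented layer that supports the photoreceptors, and from the choroid, the vascular layer beneath it. All mice were C57BL/6J. The NaIO3 group had sodium iodate, an oxidant toxic to the RPE, by vein at 20 mg/kg, the PBS group had the same volume of phosphate-buffered saline, and both were studied at 7 days. Each group is 1 library made from the pooled eyes of 6 mice, so there are no replicates, the mice cannot be told apart, and no difference below has a replicate check or a test. Brown hexagonal cells were collected by hand under a microscope after dispase digestion and removal of the neural retina, so the mix of cells also reflects that step. Levels are the unique molecular identifiers (UMIs) of a gene per 1000000 of all UMIs in a class of cells (CPM), 1 UMI standing for 1 captured RNA molecule. Ranges in brackets are 95% intervals by exact methods, for counting error alone.

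Type I and type III interferons bind receptors that activate the JAK kinases, and these phosphorylate STAT proteins such as STAT2. Together with IRF9, STAT2 forms part of a complex that enters the nucleus and binds the interferon-stimulated response element, a short sequence near the start of many of these genes. Cytosolic sensors of RNA such as RIG-I and MDA5 act upstream by causing interferon release, and are themselves interferon-stimulated, as are the antiviral effectors and the regulators that end the response.

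The PBS library held 4618 barcodes with 51055592 UMIs and the NaIO3 library 4058 with 51168520, of which 4216 and 3812 cells were used after filtering. Cell classes were set by gates on fixed marker genes, none of which is among the 39, with cuts set after the score distributions were seen. RPE-gated cells (at least 60 UMIs per 10000 from 8 visual cycle and related genes such as Rpe65, Rgr and Lrat) numbered 3458 of the PBS cells (82.0%) and 2239 of the NaIO3 cells (58.7%). Surface epithelium-gated cells (keratins such as Krt5 and Krt12) numbered 78 and 681, and macrophage-gated cells (C1qa, Csf1r, Lyz2 and others) 51 and 453. MHC class II-gated cells numbered 70 and 35, fibroblast-gated 197 and 46, mural-gated 60 and 32, rod-gated 67 and 32, and endothelial-gated 32 and 11. Markers of RPE led the RPE-gated cells of both libraries, with 3 in PBS and 5 in NaIO3 among the 10 leading genes. The NaIO3 mural-gated cells had as many fibroblast as mural markers among theirs. RPE-gated cells had a median of 11304.5 UMIs in PBS and 9434 in NaIO3, with a median mitochondrial share of 8.33% and 11.8%. The part of this difference in the results below was not tested. In a clustering on variable genes, with the 39 members left out, the RPE-gated cells of the libraries lay mostly in different clusters, 1871, 1240 and 279 PBS cells in clusters 0, 2 and 5, and 1353 and 805 NaIO3 cells in clusters 1 and 3. Clusters 1 and 2 were left unnamed by the marker rule and had Pmel, a pigment gene, among their leading genes. The libraries shared 24 barcode sequences.

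The response element that the STAT and IRF9 complex and other IRF proteins bind is printed first, for the members whose values are followed most closely below and for 2 comparisons, Bst2 and Gbp3, whose ratios in RPE-gated cells were under 2. Sequences are the promoter windows of RefSeq on GRCm38.p6, read 5′ to 3′ on the strand of the gene, with the core of the element in capitals. The core is GAAA, any 2 bases and GAAA again, or the reverse complement, TTTC, any 2 bases and TTTC. Position -1 is the base before the annotated start.
Ifit1: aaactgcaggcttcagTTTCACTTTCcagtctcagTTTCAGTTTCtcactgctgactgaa
Ifit3: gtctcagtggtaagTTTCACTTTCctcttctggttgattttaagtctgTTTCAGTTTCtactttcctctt
Ifit3b: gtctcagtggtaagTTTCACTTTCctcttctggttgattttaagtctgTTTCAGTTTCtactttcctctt
Isg15: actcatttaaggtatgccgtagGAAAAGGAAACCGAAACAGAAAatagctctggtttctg
Rsad2: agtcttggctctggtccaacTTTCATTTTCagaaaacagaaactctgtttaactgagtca
Oas1a: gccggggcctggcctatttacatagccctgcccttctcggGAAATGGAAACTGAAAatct
Bst2: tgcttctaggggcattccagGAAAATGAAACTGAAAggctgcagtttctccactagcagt
Gbp3: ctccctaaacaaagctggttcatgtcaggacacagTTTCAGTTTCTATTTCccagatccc
The Ifit1 window lies at chr19:34640769-34640828 (plus strand), bases -120 to -61. The Ifit3 window is chr19:34583359-34583428 (plus strand), bases -170 to -101, and that of Ifit3b is chr19:34607755-34607824 (plus strand), bases -202 to -133. The Ifit3 and Ifit3b stretches of 70 bases are the same letter for letter, so these neighbouring copies share both cores and the spacer between them. The Isg15 window at chr4:156200859-156200918 (minus strand) spans bases -100 to -41 and holds 3 overlapping cores. The Rsad2 window is chr12:26456533-26456592 (minus strand), bases -140 to -81, with 1 core. Oas1a has 2 overlapping cores at chr5:120907526-120907585 (minus strand), bases -60 to -1. The windows of Bst2 at chr8:71537563-71537622 (minus strand), bases -150 to -91, and of Gbp3 at chr3:142559964-142560023 (plus strand), bases -80 to -21, hold 2 overlapping cores each. All 8 windows lie outside the annotated body of their own gene. Overlap of the windows with other genes was not looked up. The core thus stood both before members with large ratios between the libraries and before members with ratios under 2.

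Of the 39 members, 30 had a promoter in the table, covering 250 bases before the start and 50 after it. The core, searched on both strands, was found in 19 of the 30 (63.3%) and in 3.99% of 27025 genes with such a window. In the 250 bases before the start alone it was in 15 of 30, and in 3.46% of all genes. The longer form with 1 more C at its end, which lies over the same matches, was in 16 of 30 and in 0.944% of all genes. The gamma-activated site TTCNNNGAA, a motif of the interferon gamma response, was in 8 of 30 (26.7%) and in 9.55% of all genes. Members with the gamma-activated site were Ifit2, Irf1, Oas1a, Ifi35, Ifitm3, Bst2, Eif2ak2 and Igtp. Such matches describe letters only and show no binding. Mx1, Iigp1, Usp18, Parp14, Parp9, Dhx58, Oas2, Rtp4 and Zbp1 had no entry. The core was not found in the windows of Ifit2, Irf7, Irf1, Irf9, Cmpk2, Ube2l6, Oasl2, Oasl1, Ifi44, Ifi35 and Xaf1. Among these were members with large ratios in RPE-gated cells, such as Irf7, Oasl1 and Ifi44, and Irf9 and Ifi35 with ratios under 2.

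In RPE-gated cells nearly the whole set stood higher in the NaIO3 library. All 39 members reached 20 UMIs over both libraries, 32 were at least 2-fold higher in NaIO3 and 0 at least 2-fold lower. Of the 32, Rsad2, Mx1, Iigp1, Oasl1, Oas1a, Oas2, Oas3, Ifi44, Zbp1 and Gbp2 had under 20 PBS UMIs and passed the minimum through NaIO3. Over all 14208 genes with 20 UMIs in these cells, 12.0% were at least 2-fold higher and 2.79% at least 2-fold lower. The median log2 ratio was 2.54 for the members and 0.18 for all genes. Summed over members the level was 392 CPM in PBS and 1121 CPM in NaIO3, a ratio of 2.86 (2.81 to 2.92). By cluster, the sum in RPE-gated cells was 375 (367 to 382), 428 (416 to 439) and 358 (338 to 379) CPM in clusters 0, 2 and 5 of PBS, and 1113 (1095 to 1131) and 1095 (1077 to 1114) CPM in clusters 1 and 3 of NaIO3. Of the 7 members under 2-fold, Ifih1 lay just below the line and the others were Irf9, Stat2, Ifi35, Bst2, Eif2ak2 and Gbp3. The interval of every member except Gbp3 lay above 1. With TMM scaling, which moved the median log2 ratio of all genes to -0.01, 30 members were at least 2-fold higher and Gbp3 stood at 0.966. Without the 5% of cells highest in these genes in each library, chosen after seeing the data, 25 members were at least 2-fold higher and the summed ratio was 1.81.

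**Figure D1:**
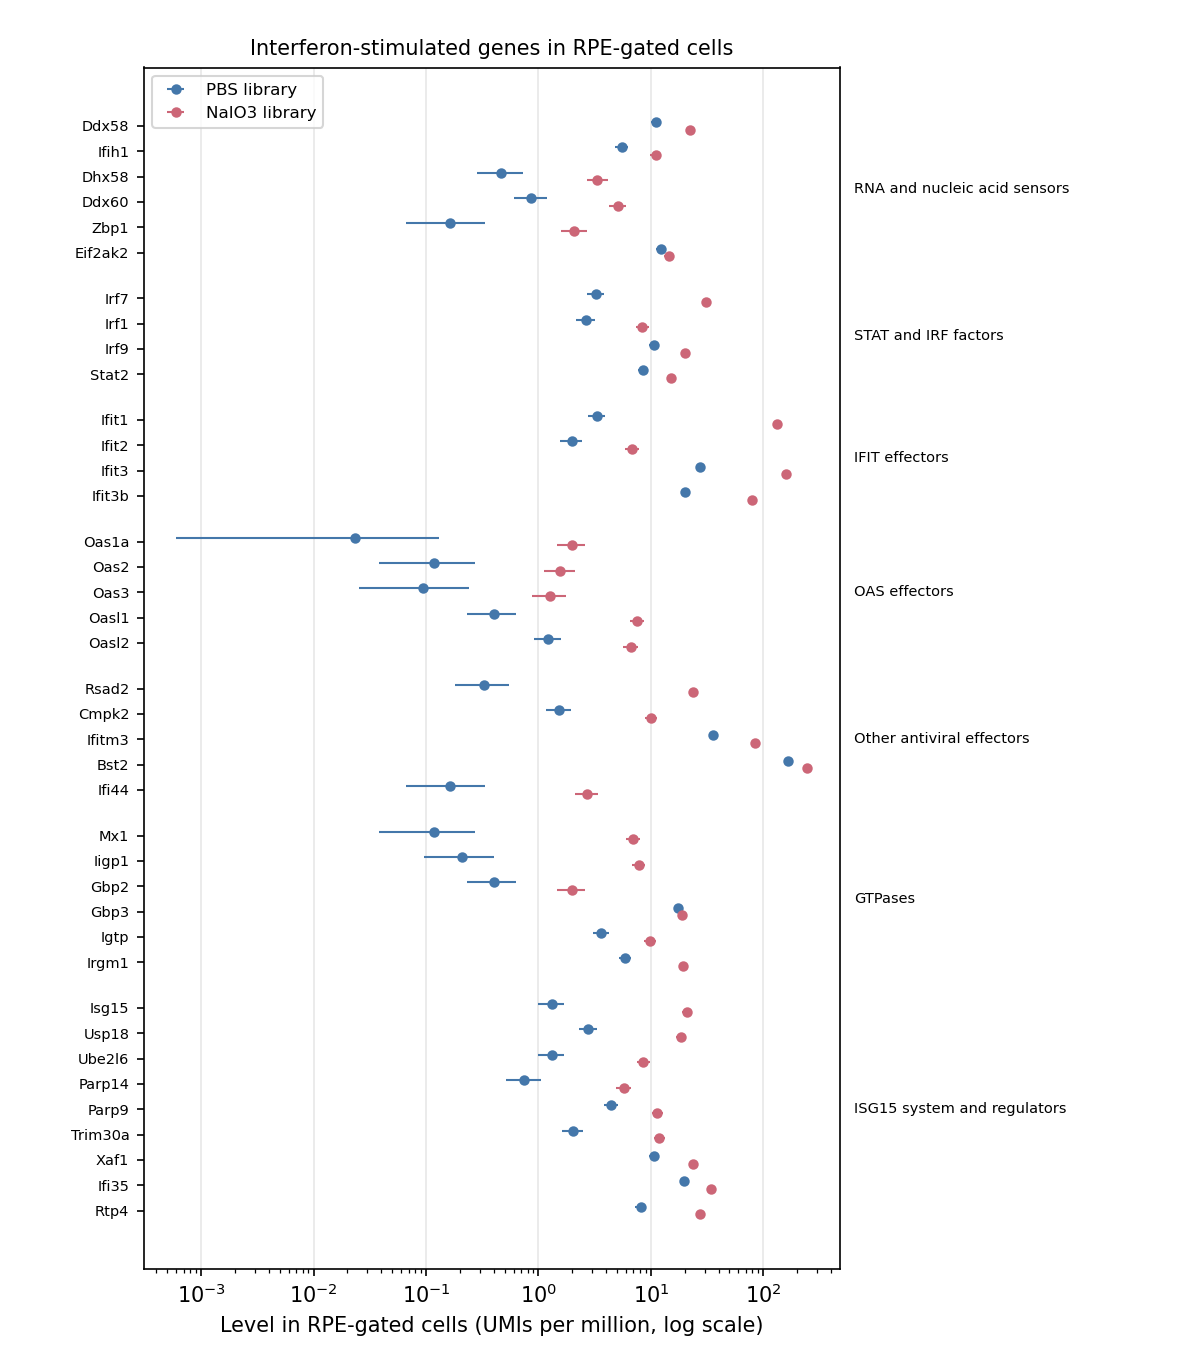
Level of each of the 39 genes in RPE-gated cells (x axis, CPM, log scale), PBS in blue and NaIO3 in red, by role. Points are the level of 1 library and bars its exact 95% Poisson interval; the NaIO3 point lies to the right of the PBS point for all 39 genes, and for Gbp3 the points nearly touch.

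Droplets also carry RNA released by other cells, and the NaIO3 library held many more surface epithelium and macrophage cells. The 19 marker genes of these classes were read in RPE-gated cells as a mark of such released RNA. In NaIO3 they stood at 19.4% of their mean level in the library (surface epithelium 16.9%, macrophage 22.5%), and in PBS at 26.3%. In NaIO3, 11 members lay within 2 times that mark in RPE-gated cells, namely Isg15, Irf1, Dhx58, Oasl2, Oasl1, Oas1a, Oas2, Oas3, Ifi44, Zbp1 and Gbp2. Isg15, for example, was at 21.4% of its library mean and Oasl2 at 18.9%, so that in their mean over the class both lay near the mark. In PBS 20 members lay within 2 times the mark, among them the same 11 and Rsad2, Mx1, Iigp1, Irf7 and Ifitm3, and Isg15 stood at 10.7%. At the other end, 11 members stood above their library mean in NaIO3 RPE-gated cells: Ifit1 (108%), Ifit2, Ifit3 (125%), Ifit3b, Rsad2 (132%), Mx1 (138%), Iigp1, Stat2, Cmpk2 (141%), Ddx58 and Gbp3. After subtraction of that share of each library mean, 29 members were at least 2-fold higher and the summed ratio was 2.87. Oas1a, Oas3 and Oasl2 then had 0 CPM left in both libraries. Isg15 and Rsad2 had 0 CPM left in PBS, and 1.96 and 20.2 CPM in NaIO3.

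The sensors of foreign or misplaced nucleic acid together stood at 30.3 CPM in PBS and 58.5 CPM in NaIO3, a ratio of 1.93 (1.79 to 2.08) in RPE-gated cells. Ddx58 encodes RIG-I, which binds RNA with a free triphosphate end, and was at 11.0 CPM (10.1 to 12.1) in PBS and 22.5 CPM (20.7 to 24.4) in NaIO3, a ratio of 2.04 (1.80 to 2.30). Ifih1 encodes MDA5, the sensor of long double-stranded RNA, and was at 5.51 CPM (4.82 to 6.26) in PBS and 11.0 CPM (9.79 to 12.3) in NaIO3, a ratio of 2.00 (1.68 to 2.38). Both were therefore present in control cells and higher in NaIO3 by a similar ratio. Dhx58 encodes LGP2, a helicase that tunes the other pair and lacks their signalling domain. Its 20 and 90 UMIs gave 0.469 CPM in PBS and 3.35 CPM in NaIO3, a ratio of 7.14 (4.36 to 12.2). Ddx60, a related helicase, was at 0.867 CPM in PBS and 5.06 CPM in NaIO3, a ratio of 5.83 (4.03 to 8.63). These low-level helicases thus differed more between the libraries than the main sensors did. Zbp1 binds left-handed (Z-form) nucleic acid and can start necroptosis, and its 7 and 56 UMIs gave a ratio of 12.7 (5.77 to 33.0). The NaIO3 levels of Dhx58 and Zbp1 lie within 2 times the released-RNA mark. Eif2ak2 encodes PKR, the kinase that stops translation on binding double-stranded RNA. It was at 12.2 CPM (11.2 to 13.3) in PBS and 14.5 CPM (13.1 to 16.1) in NaIO3, a ratio of 1.19 (1.04 to 1.36), the smallest among the sensors.

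The transcription factors of the response together stood at 25 CPM in PBS and 74.7 CPM in NaIO3, a ratio of 2.99 (2.77 to 3.22) in RPE-gated cells. Irf7, the factor that drives further interferon alpha transcription, was at 3.23 CPM (2.72 to 3.82) in PBS and 30.9 CPM (28.8 to 33.1) in NaIO3, a ratio of 9.56 (7.97 to 11.5). Irf1, which acts after interferon gamma and other inflammatory signals, was at 2.62 CPM (2.16 to 3.16) in PBS and 8.40 CPM (7.34 to 9.57) in NaIO3, a ratio of 3.20 (2.54 to 4.05), with its NaIO3 level within 2 times the released-RNA mark. Irf9 and Stat2, the parts of the complex that binds the response element, were present in control cells and differed less. Irf9 was at 10.6 CPM (9.64 to 11.6) in PBS and 20.2 CPM (18.6 to 22) in NaIO3, a ratio of 1.91 (1.68 to 2.17), and reads of its same-strand neighbour Rnf31 may be counted with it. Stat2 was at 8.57 CPM (7.72 to 9.50) in PBS and 15.2 CPM (13.8 to 16.8) in NaIO3, a ratio of 1.77 (1.54 to 2.05).

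The IFIT proteins bind viral RNA that lacks the cell's own cap marks and block its translation. As a family they were at 52.7 CPM in PBS and 376 CPM in NaIO3, a ratio of 7.13 (6.82 to 7.47), with all 4 members at least 2-fold higher. Ifit1 was at 3.30 CPM (2.78 to 3.90) in PBS and 131 CPM (127 to 136) in NaIO3, from 141 and 3533 UMIs, a ratio of 39.8 (33.6 to 47.4). Ifit3 was at 27.3 CPM (25.7 to 28.9) in PBS and 158 CPM (154 to 163) in NaIO3, a ratio of 5.81 (5.44 to 6.20), and Ifit3b at 20.1 CPM (18.8 to 21.5) in PBS and 79.3 CPM (76.0 to 82.8) in NaIO3, a ratio of 3.94 (3.64 to 4.27). Ifit3 and Ifit3b were thus the closer pair, with smaller ratios than Ifit1. Ifit2 was at 1.97 CPM (1.57 to 2.44) in PBS and 6.84 CPM (5.89 to 7.90) in NaIO3, a ratio of 3.48 (2.67 to 4.56). Ifit3 and Ifit3b are near-identical copies and Ifit1 is a related gene of their family, and how reads that match several genes were counted is not given in the sources used here.

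The OAS enzymes make short 2′-5′ linked adenylate chains that switch on RNase L, and OAS-like proteins share their fold. As a group they stood at 1.85 CPM in PBS and 18.9 CPM in NaIO3, a ratio of 10.2 (8.05 to 13.1) in RPE-gated cells, and all 5 were at least 2-fold higher in NaIO3. Oasl1 was at 0.398 CPM (0.232 to 0.638) in PBS and 7.51 CPM (6.51 to 8.62) in NaIO3, a ratio of 18.9 (11.5 to 33.0), and Oasl2 at 1.22 CPM (0.910 to 1.60) in PBS and 6.62 CPM (5.68 to 7.66) in NaIO3, a ratio of 5.43 (3.97 to 7.55). Oas1a rested on 1 PBS UMI and 53 NaIO3 UMIs, a ratio of 84.1 (14.5 to 3384). Oas2 and Oas3 had 5 and 4 PBS UMIs and ratios of 13.3 (5.28 to 43.2) and 13.5 (4.81 to 52.3). All 5 lie within 2 times the released-RNA mark in NaIO3, and with 1 to 5 PBS UMIs the ratios of the last 3 are poorly fixed.

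The other antiviral effectors together stood at 203 CPM in PBS and 367 CPM in NaIO3, a ratio of 1.80 (1.75 to 1.85), and Rsad2 had the highest ratio among them. Rsad2 encodes viperin, which turns CTP into a chain terminator of viral RNA synthesis, and was at 0.328 CPM (0.179 to 0.550) in PBS and 23.7 CPM (21.9 to 25.6) in NaIO3 from 14 and 637 UMIs, a ratio of 72.2 (42.7 to 133). Cmpk2, the mitochondrial nucleotide kinase encoded beside it, was at 1.52 CPM (1.18 to 1.94) in PBS and 10.1 CPM (8.91 to 11.3) in NaIO3, a ratio of 6.62 (5.03 to 8.81). Ifitm3, a membrane protein that hinders the fusion of viruses with endosomes, was at 35.9 CPM (34.1 to 37.7) in PBS and 84.6 CPM (81.2 to 88.2) in NaIO3, a ratio of 2.36 (2.21 to 2.52). Bst2 encodes tetherin, which holds budding virus at the cell surface. It was at 166 CPM (162 to 169) in PBS and 245 CPM (239.6 to 251) in NaIO3, a ratio of 1.48 (1.43 to 1.53), so control RPE-gated cells already carried most of the level seen after NaIO3. Ifi44, whose role is less clear, had 7 and 73 UMIs and a ratio of 16.5 (7.64 to 42.6), with its NaIO3 level within 2 times the released-RNA mark.

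Of the 6 GTPases, 5 were at least 2-fold higher and the group stood at 27.6 CPM in PBS and 65.0 CPM in NaIO3, a ratio of 2.36 (2.19 to 2.54). Mx1 belongs to the dynamin-like Mx proteins that block influenza virus in mice with a working allele, which C57BL/6 mice lack. Its RNA had 5 PBS and 186 NaIO3 UMIs, a ratio of 59.0 (24.8 to 184). Iigp1, an immunity-related GTPase that attacks the vacuoles of intracellular parasites, had 9 and 210 UMIs, a ratio of 37.0 (19.1 to 82.1). Both were thus barely counted in control cells. The regulatory members of the same family differed less, Irgm1 with 5.93 CPM in PBS and 19.5 CPM in NaIO3 and a ratio of 3.29 (2.82 to 3.83), and Igtp with 3.63 CPM in PBS and 9.81 CPM in NaIO3 and a ratio of 2.70 (2.21 to 3.32). Igtp overlaps Irgm2 on the same strand, so reads of the pair may be mixed. The guanylate-binding proteins, which coat pathogen vacuoles, were unlike each other. Gbp2, within 2 times the released-RNA mark, had 17 and 53 UMIs and a ratio of 4.95 (2.82 to 9.11), whereas Gbp3 was at 17.3 CPM (16.1 to 18.6) in PBS and 19.0 CPM (17.4 to 20.8) in NaIO3, a ratio of 1.10 (0.980 to 1.23), which the counts cannot tell from 1.

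ISG15 is a ubiquitin-like protein that is attached to other proteins, and its genes and those of the response's regulators stood at 51.1 CPM in PBS and 162 CPM in NaIO3, a ratio of 3.17 (3.01 to 3.34). Isg15 was at 1.31 CPM (0.991 to 1.70) in PBS and 20.7 CPM (19.1 to 22.5) in NaIO3, a ratio of 15.8 (12.0 to 21.2), and this NaIO3 mean lay near the released-RNA mark. Its UMIs were not spread evenly, since the 5% of cells highest in the other members held 50% (45.8 to 54.2) of them, at 196 CPM against 11.0 CPM in the rest. Ube2l6, the conjugating enzyme for ISG15, was at 1.31 CPM in PBS and 8.59 CPM in NaIO3, a ratio of 6.55 (4.87 to 8.93). Usp18, which removes ISG15 and dampens signalling at the type I receptor, was at 2.76 CPM in PBS and 18.5 CPM in NaIO3, a ratio of 6.68 (5.46 to 8.24). The mean levels of all 3 genes of this cycle were thus higher in NaIO3. In PBS, Isg15 and Ube2l6 lay within 2 times the released-RNA mark. Parp14 and Parp9 encode ADP-ribosyltransferase family proteins, and were at 0.75 CPM in PBS and 5.73 CPM in NaIO3, a ratio of 7.64 (5.19 to 11.6), and at 4.45 CPM in PBS and 11.4 CPM in NaIO3, a ratio of 2.56 (2.13 to 3.09). Parp9 lies beside Dtx3l on the other strand, and the strand setting of the counts is not given in the sources used here. Trim30a, an inhibitor of Toll-like receptor signalling, was at 2.04 CPM in PBS and 11.9 CPM in NaIO3, a ratio of 5.84 (4.59 to 7.49). Rtp4 was at 8.11 CPM in PBS and 27.1 CPM in NaIO3, a ratio of 3.34 (2.93 to 3.81). Xaf1, which favours apoptosis, was at 10.7 CPM in PBS and 23.8 CPM in NaIO3, a ratio of 2.24 (1.98 to 2.53), and Ifi35 at 19.7 CPM in PBS and 34.1 CPM in NaIO3, a ratio of 1.73 (1.57 to 1.90), the smallest of this group.

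The NaIO3 cells were higher at the median and far higher in a small tail. The summed UMIs of the 39 genes per 10000 UMIs of a cell had a median of 3.32 in PBS and 5.94 in NaIO3. The 95th percentiles were 9.11 and 21.6, the 99th 15.7 and 166, and the highest cells 45.6 and 346. The gap between the libraries thus widened steeply in the last few percent of cells. In NaIO3, 47 RPE-gated cells (2.10%, 1.55 to 2.78) drew at least 100 of each 10000 UMIs from these genes. In PBS 0 of 3458 cells did, which by a floor of 3 counts of the total allows a share of up to 0.0868% of cells at that level.

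**Figure D2:**
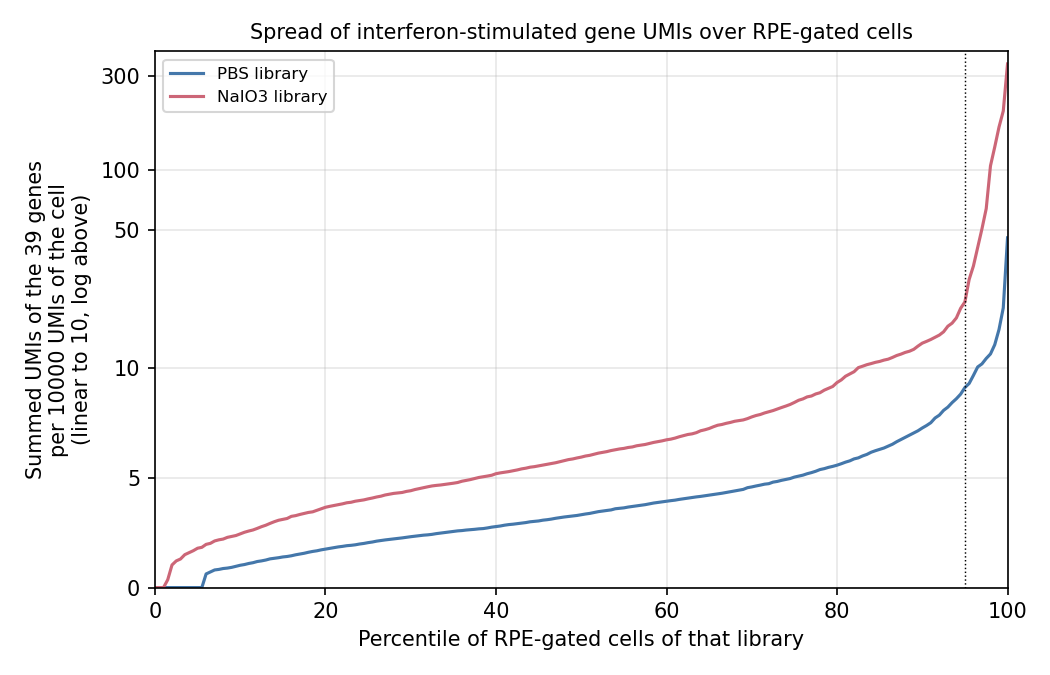
Summed UMIs of the 39 genes per 10000 UMIs of a cell (y axis, linear to 10 and logarithmic above) against the percentile of RPE-gated cells (x axis), PBS in blue and NaIO3 in red, with the 95th percentile dotted. The NaIO3 curve lies above the PBS curve over most of the range and climbs to 346 at its end, against 45.6 in PBS.

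To see which members take part in this upper tail, cells were ranked for each gene by the share of UMIs from the other 38, and the share of the gene's own UMIs in the highest 5% of cells was read. In NaIO3 these 112 cells held a median of 39.4% of a member's UMIs (37 members with at least 50 UMIs), against 5.37% for 11385 other genes, whose 99th percentile was 12.7%. In PBS the 173 highest cells held a median of 9.37% (26 members), against 4.32% for 11447 other genes with a 99th percentile of 9.02%. The medians rest on different members, since some reached 50 UMIs in NaIO3 only. Every member with at least 50 UMIs in both libraries had a larger share in NaIO3, as the plot of these shares shows. The intervals of Irf1, Ube2l6 and Oasl2 overlapped between the libraries. Bst2 made up 7068 of 16732 member UMIs in PBS and 6602 of 30164 in NaIO3, so the rankings also differ in make-up. When each cell was thinned to 3000 UMIs the medians were 33.8% in NaIO3 (27 members) and 7.84% in PBS (15 members).

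**Figure D3:**
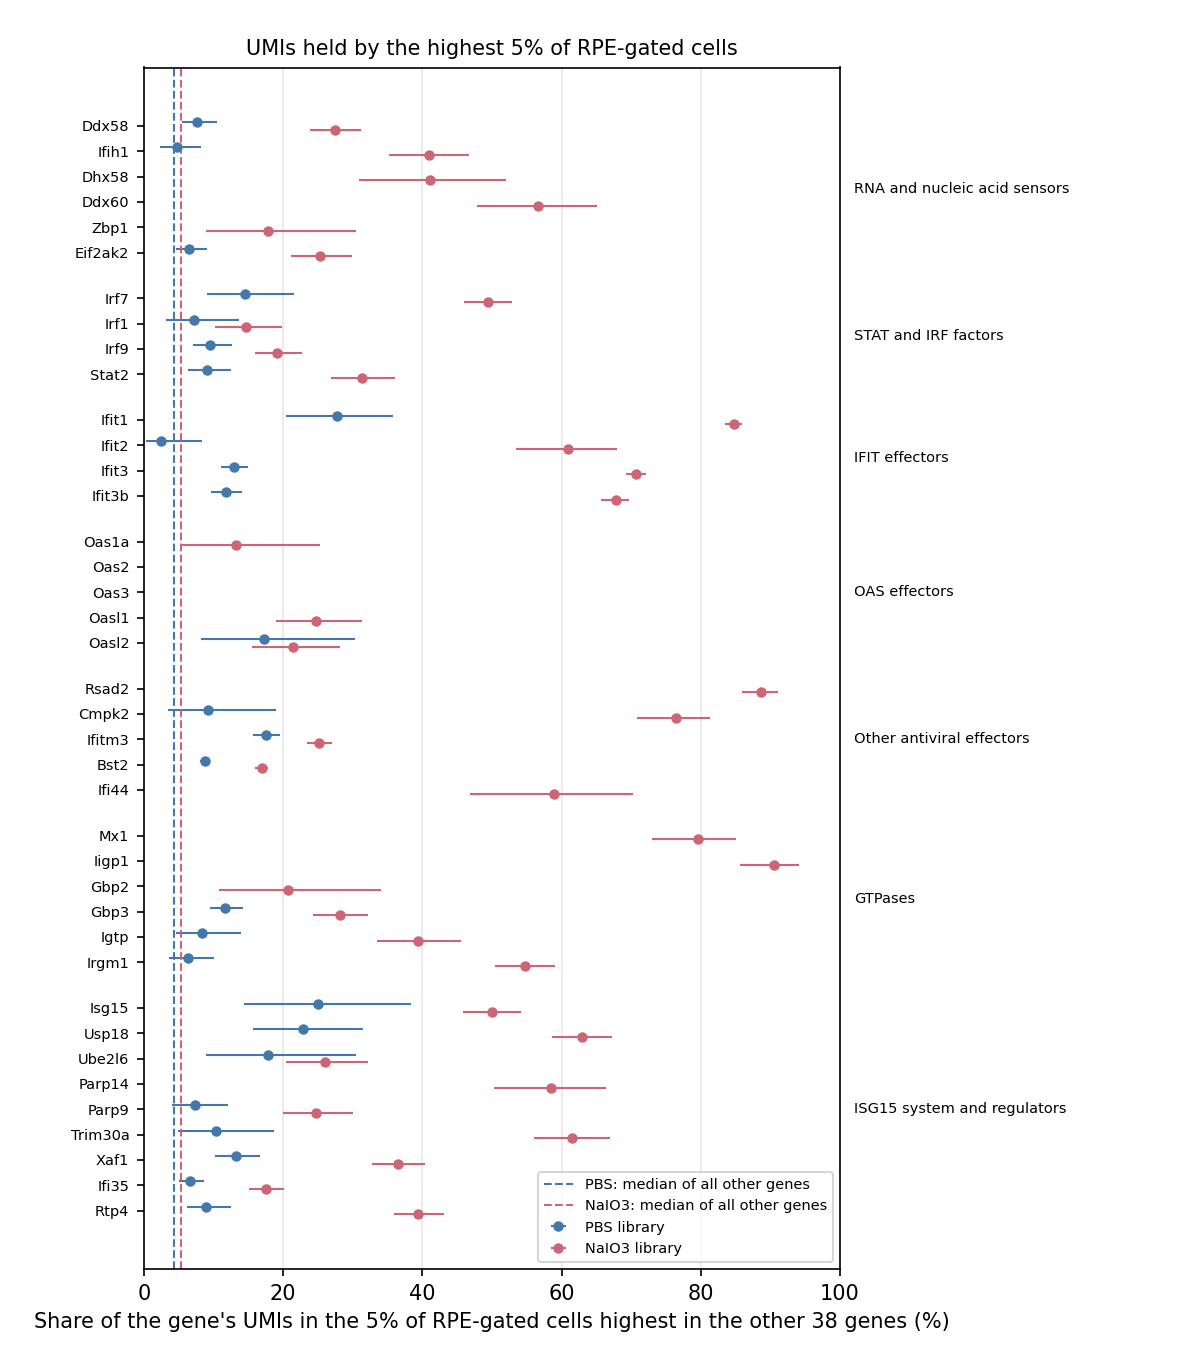
Share of each gene's UMIs held by the 5% of RPE-gated cells highest in the other 38 genes (x axis, percent, exact 95% binomial interval), PBS in blue and NaIO3 in red, for genes with at least 50 UMIs in that library. Dashed lines are the medians of all other genes, 4.32% and 5.37%; Iigp1, Rsad2, Ifit1 and Mx1 lie farthest right in NaIO3, between 79.6% and 90.5%.

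The members differed widely in the NaIO3 library. Iigp1 had 90.5% (85.7 to 94.1) of its UMIs in the highest cells, Rsad2 88.7% (86.0 to 91.1), Ifit1 84.8% (83.5 to 85.9), Mx1 79.6% (73.1 to 85.1) and Cmpk2 76.4% (70.9 to 81.3). Among the 112 cells highest in the other genes and the 2127 that remain, Ifit1 was detected in 99 and 386, Rsad2 in 73 and 70, and Iigp1 in 48 and 17. At the low end were Bst2 with 16.9% (16 to 17.8), Ifi35 with 17.5% (15.1 to 20.1), Irf1 with 14.6% (10.3 to 19.9), Irf9 with 19.1% (15.9 to 22.7) and Zbp1 with 17.9% (8.91 to 30.4). Oas1a had 13.2% (5.48 to 25.3), an interval whose lower end lies just above the median of other genes, and Oas2 and Oas3 had only 2 UMIs each in the highest cells. The most concentrated members were thus 5 effectors and GTPases, while Oasl1 and Oasl2 had 24.8% and 21.3%. The sensors Ifih1 (40.9%, 35.2 to 46.7) and Ddx58 (27.4%, 23.9 to 31.2) lay between.

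In the other 95% of NaIO3 RPE-gated cells, 37 of the 39 members still stood above the level of all PBS RPE-gated cells, 23 of them by at least 2-fold. The 23 included all 11 members within 2 times the released-RNA mark in NaIO3, Oasl2 and Irf1 among them. Of the 14208 genes, with cells ranked by all 39 members, 64.7% stood above the PBS level and 11.8% by at least 2-fold. Eif2ak2 and Gbp3 were the 2 below it, at 0.937 and 0.835 times. Ifit1 was at 21.1 CPM there, 6.40 times the PBS level, Irf7 at 16.5 CPM, 5.10 times, and Rsad2 at 2.83 CPM, 8.63 times. Ifit3b, Ifit2 and Cmpk2 were at 1.34, 1.44 and 1.65 times. With the highest 5% left out of both libraries, the ratio of Ifit1 was 8.39, of Rsad2 8.25, of Iigp1 4.13, of Mx1 20.3, of Ifit3 2.05, of Ifit2 1.43, of Irgm1 1.63 and of Cmpk2 1.83. Those of Oasl2 (5.48), Irf1 (3.02) and Ifitm3 (2.31) moved little, and those of Eif2ak2 (0.983) and Gbp3 (0.955) lay just below 1.

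The 112 NaIO3 cells highest in all 39 genes were set beside the rest of the RPE-gated cells in depth and in the marker lists of other classes. Their median was 9592 UMIs, against 9429 in the rest, and their median mitochondrial share 10.6% against 11.9%. The 10 macrophage markers, all detected, summed to 1759 CPM in the highest cells and 1740.2 CPM in the rest (ratio 1.01, 0.971 to 1.05). The 9 surface epithelium markers, all detected, summed to 1668 CPM in the highest cells and 1658 CPM in the rest (ratio 1.01, 0.965 to 1.05). The 9 RPE markers were at 78062 CPM in the highest cells and 79368 CPM in the rest (ratio 0.984, 0.978 to 0.989). The RNA of these 3 classes thus differed little between the highest cells and the rest. The 8 melanocyte and pigment markers were lower, at 1379 CPM in the highest cells and 1798 CPM in the rest (ratio 0.767, 0.733 to 0.802), with Ednrb at 0. Of the 4 neutrophil markers 3 were detected, with 34 UMIs in all and 23.5 CPM in the highest cells and 6.44 CPM in the rest (ratio 3.65, 2.44 to 5.30), and of the 6 MHC class II and dendritic markers 3, with 71.2 CPM in the highest cells and 47.8 CPM in the rest (ratio 1.49, 1.21 to 1.82), while Flt3, Cd209a and Xcr1 were at 0. Summed markers of the highest cells over the rest gave 1.24 (1.12 to 1.36) for mural cells, 1.13 (1.03 to 1.23) for rods, 0.965 (0.939 to 0.991) for Muller glia, 0.590 (0.497 to 0.696) for bipolar cells, 0.603 (0.444 to 0.802) for Schwann cells and 0.243 (0.0973 to 0.505) for dividing cells. The plasmacytoid dendritic markers, of cells known as strong interferon producers, had 10 UMIs, with Ccr9, Cox6a2 and Klk1 at 0. In the PBS cells highest in all 39 genes, summed markers over the rest gave 1.56 (1.51 to 1.61) for melanocyte and pigment markers. They gave 1.43 (1.21 to 1.68) for fibroblasts, 1.34 (1.23 to 1.46) for surface epithelium and 1.26 (1.15 to 1.37) for macrophages. RPE markers were at 0.971 (0.967 to 0.975) and rod markers at 0.934 (0.886 to 0.983). The part of these differences in the highest cells of either library was not tested.

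The genes outside the list that were most concentrated in the same 112 cells were taken by a fixed rule, the 10 with the highest share of UMIs there among genes with at least 50 UMIs. They were Cxcl10 (88.1%), Gm4951 (84.3%), Tgtp1 (71.4%), Irgm2 (54.3%), Socs1, Herc6, Cd274, Trim30d, Cxcl2 and 9930111J21Rik2 (42.9%). Cxcl10, the chemokine that draws T cells through Cxcr3, had 9 UMIs in PBS RPE-gated cells (0.211 CPM) and 160 in NaIO3 (5.95 CPM). Cd274 encodes PD-L1, a brake on T cells, and went from 1.62 to 6.99 CPM with 47.9% of its UMIs in those cells. Herc6, the ISG15 ligase of the mouse, went from 1.64 to 6.25 CPM. Tgtp1 and Irgm2 are GTPases of the family of Iigp1.

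The share of RPE-gated cells with at least 1 UMI was larger in NaIO3 for 38 of the 39 members, all but Gbp3, and this count was the same after thinning to 3000 UMIs per cell, which left out 2 PBS cells. Of the 14208 genes the share was larger in NaIO3 for 59.1%, and for 63.9% after thinning. For Ifit1 the share was 2.95% in PBS and 21.7% in NaIO3, and 0.608% and 8.93% after thinning. In rod-gated cells, with medians of 4708 and 7684 UMIs, the thinned share for Ifit1 was 0 of 67 cells in PBS, which by the same floor allows up to 4.48% of cells with a UMI, and 6.25% of 32 cells in NaIO3. For Bst2 the thinned shares were 35.5% and 44.8% in RPE-gated cells, and 2.99% and 12.5% in rod-gated cells. For Oasl2 the NaIO3 share was 2.50% in RPE-gated and 15.6% (5.28 to 32.8) in rod-gated cells. Only Ifit1, Bst2 and Oasl2 were set beside rods here, and the source of the UMIs in rod-gated cells was not tested. Over RPE-gated cells the Oasl2 UMIs were uneven, with 21.3% (15.6 to 28.1) in the highest cells.

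Surface epithelium-gated cells, led by Krt12, Krt6a and Krt15 in both libraries, carried the set at a high level in both libraries. The sum was 2034 CPM in PBS and 2621 CPM in NaIO3, a ratio of 1.29 (1.23 to 1.35). Of 37 members with at least 20 UMIs, 14 were at least 2-fold higher in NaIO3 and 2 at least 2-fold lower, beside 17.2% and 3.61% of 10964 genes. The class held 984832 UMIs in PBS and 7798324 in NaIO3. Of the 14, Rsad2, Mx1, Stat2, Usp18, Cmpk2, Dhx58, Oas2, Oas3, Ifi44 and Bst2 had under 20 PBS UMIs and passed the minimum through NaIO3. The intervals of Mx1 (0.494 to 125) and Cmpk2 (0.381 to 99.7) included 1. The median log2 ratio was 0.54 for the members and 0.27 for all genes. With TMM scaling the summed ratio was 1.14 and 12 members were at least 2-fold higher.

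Ifit1 was at 41.6 CPM (29.9 to 56.5) in PBS and 249.5 CPM (239 to 261) in NaIO3 in these cells, a ratio of 5.99 (4.40 to 8.38), and the IFIT group as a whole at 155 CPM in PBS and 499 CPM in NaIO3, a ratio of 3.21 (2.73 to 3.80). Bst2 had 12 and 546 UMIs and a ratio of 5.75 (3.26 to 11.2). It stood at 7.54% of its library mean in PBS, where the released-RNA mark of this class was 9.99%, and at 25.8% in NaIO3, where the mark was 15.1%. Subtraction left 0 CPM in PBS and 29.1 CPM in NaIO3. Usp18 had a ratio of 3.54 (1.76 to 8.29), Oas2 one of 5.37 (2.06 to 19.9) and Ifi44 one of 4.80 (2.02 to 14.9). Rsad2 had 0 UMIs in PBS and 82 in NaIO3, at least 3.45-fold higher against a floor of 3 UMIs in the PBS class. Isg15, by contrast, was nearly level, at 398 CPM (359.6 to 439) in PBS and 427 CPM (413 to 442) in NaIO3, a ratio of 1.07 (0.966 to 1.19). Irf7 (0.880, 0.724 to 1.08) and Oasl1 (0.973, 0.817 to 1.17) were also close to 1. Irf1 was lower, at 249 CPM (219 to 282) in PBS and 91.2 CPM (84.6 to 98.1) in NaIO3, a ratio of 0.366 (0.317 to 0.426), as were Gbp2 (0.445, 0.311 to 0.649), Oasl2 (0.733, 0.629 to 0.858) and Ddx60 (0.701, 0.531 to 0.939). The 78 PBS cells limit all of these ratios. The mix of surface epithelium also differed. Counting cells of any gate, cluster 4, led by Krt6b and Krt12, held 83 PBS and 440 NaIO3 cells. Cluster 8, led by Krt4 and Krt15, held 18 PBS and 261 NaIO3 cells. The part of this mix in the ratios was not tested.

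In macrophage-gated cells the set as a whole was not higher in NaIO3. The sum was 2127 CPM in PBS and 1566 CPM in NaIO3, a ratio of 0.736 (0.675 to 0.804), and 0.901 with TMM scaling, which moved the median log2 ratio of all genes from -0.22 to 0.07. All 39 members reached 20 UMIs, 5 were at least 2-fold higher and 5 at least 2-fold lower, beside 8.22% and 12.8% of 10157 genes. With TMM scaling the counts were 6 higher and 2 lower. The class held 255294 UMIs in PBS and 6058458 in NaIO3, so most members passed the minimum through NaIO3. Mx1, Oas3 and Ifi44 had 0 PBS UMIs and lower bounds under 1, which give no direction. Ifitm3 was at 513 CPM (429 to 609) in PBS and 151 CPM (142 to 161) in NaIO3, a ratio of 0.295 (0.245 to 0.357), Trim30a at a ratio of 0.467 (0.310 to 0.734) and Oasl2 at 0.494 (0.286 to 0.923). These 3 were the members whose interval lay below 1. Ifit1 had 0 UMIs in PBS and 153 in NaIO3, at least 2.15-fold higher, and Rsad2 0 and 120, at least 1.69-fold higher, against a floor of 3 UMIs in the PBS class. Ifit1 in these NaIO3 cells was at 20.7% of its library mean, within 2 times the class's released-RNA mark of 13.2%, and subtraction left 9.13 CPM, while Rsad2 was at 110.2%. Of the other 4 higher members, Ddx60, Ifih1 and Gbp2 had 1 PBS UMI and Irgm1 2, and their intervals included 1. Bst2 (0.925, 0.792 to 1.09), Isg15 (0.888, 0.539 to 1.57) and Irf7 (1.14, 0.691 to 2.00) could not be told from 1. The 51 PBS cells had a median of 4476 UMIs and the 453 NaIO3 cells 11578. The mix of macrophages also differed. Counting cells of any gate, cluster 6, with Ms4a7 and Cd74 among its leading genes, held 87 PBS and 207 NaIO3 cells. Cluster 7, led by Spp1, held 18 PBS and 270 NaIO3 cells. The part of depth and of this mix in the ratios was not tested.

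**Figure D4:**
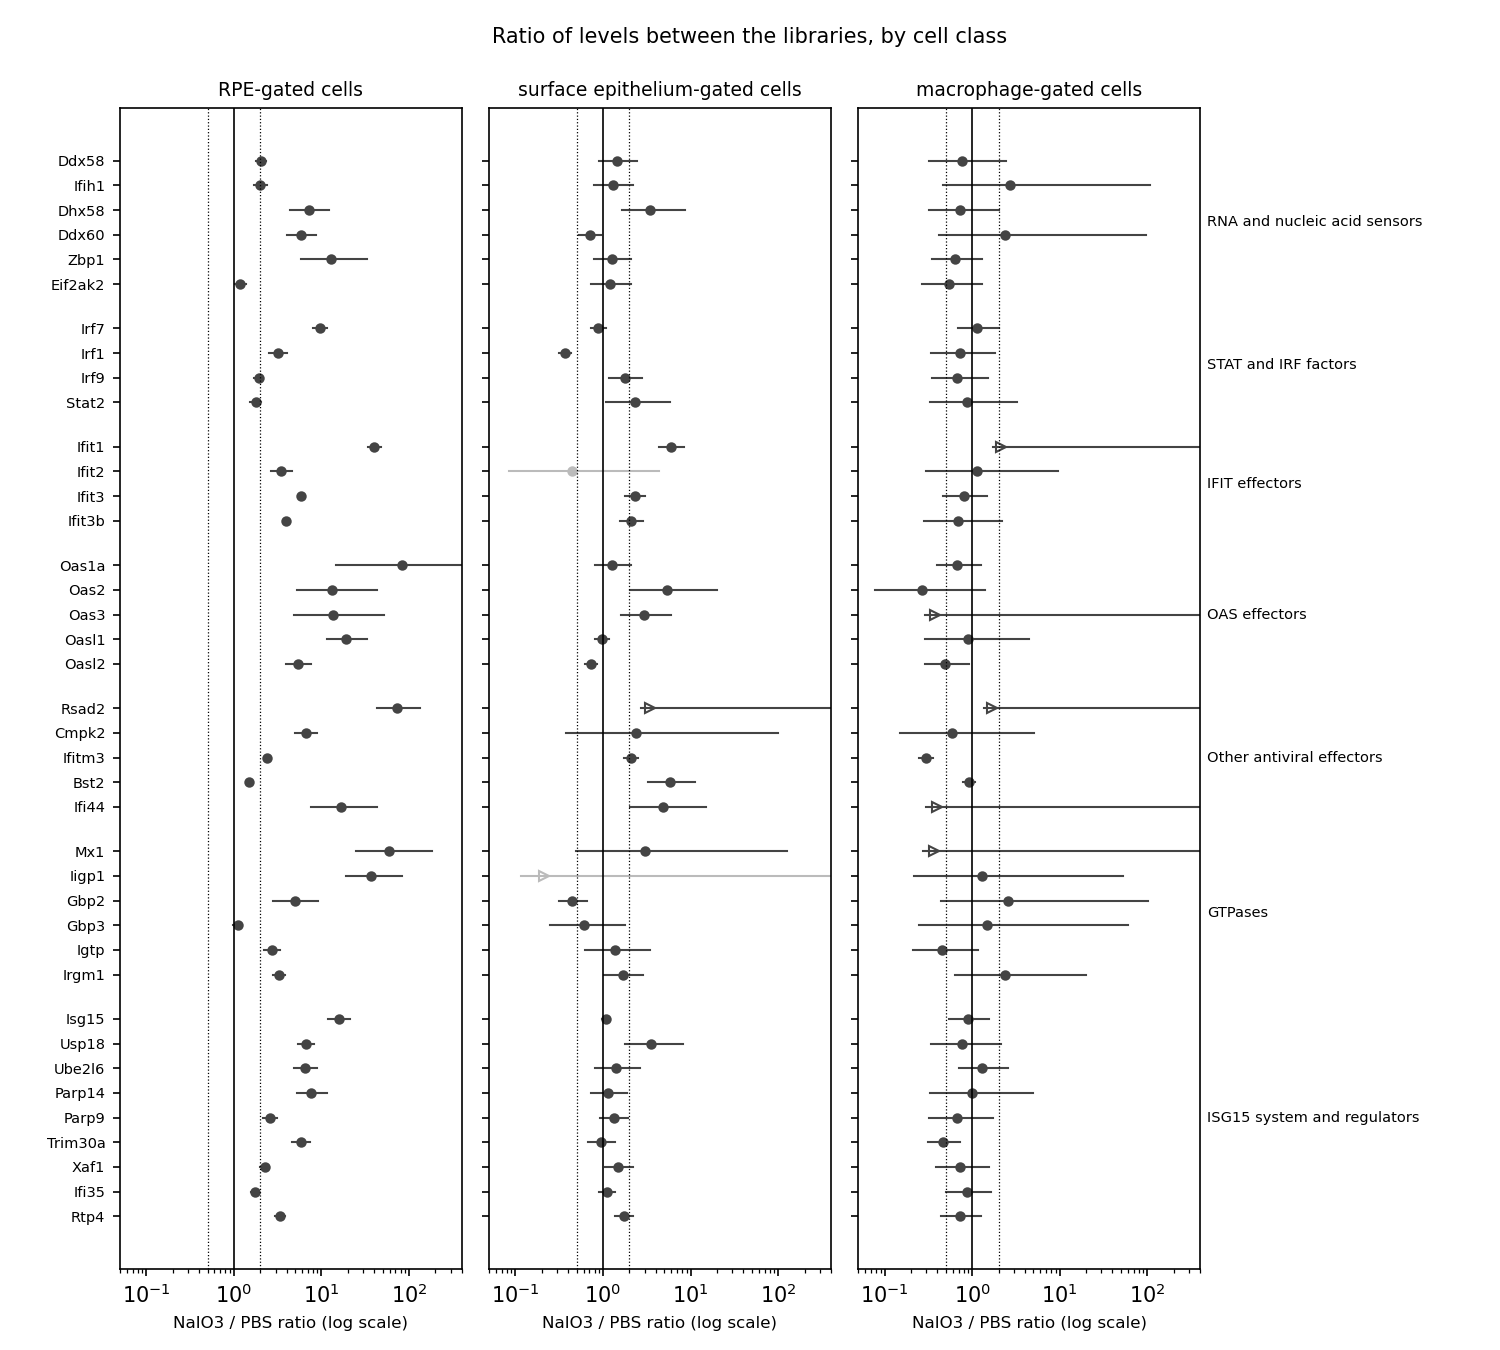
Ratio of the NaIO3 level to the PBS level (x axis, log scale) of each gene in RPE-gated, surface epithelium-gated and macrophage-gated cells, with exact 95% intervals drawn to the edge of the axis at most. The solid line is 1 and the dotted lines 0.5 and 2; open triangles are lower bounds where PBS had 0 UMIs (those left of 1 give no direction), and grey marks genes under 20 UMIs. The ratios of RPE-gated cells lie to the right of 1, while those of macrophage-gated cells scatter around it with wide intervals.

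Fibroblast-gated cells gave 1993 CPM in PBS and 2473 CPM in NaIO3, a ratio of 1.24 (1.16 to 1.33) for the sum, with only 46 cells in NaIO3. In the clustering, 193 of the 197 PBS cells lay in clusters named fibroblast, against 26 of the 46 in NaIO3. A further 19 NaIO3 cells lay in unnamed clusters. Median UMIs were 3731 in PBS and 9286.5 in NaIO3. The part of these differences in the ratios was not tested. Of 23 members with at least 20 UMIs, 4 were at least 2-fold higher and 0 at least 2-fold lower, beside 11.3% and 13.5% of 8079 genes. The 4 were Isg15 (3.53, 2.38 to 5.34), Irf7 (2.92, 1.42 to 6.46), Usp18 (2.38, 1.04 to 5.93) and Bst2 (2.19, 1.73 to 2.80). Irf7 and Usp18 had 11 and 9 PBS UMIs and passed the minimum through NaIO3. Ifit1 was at 54.9 CPM in PBS and 67.9 CPM in NaIO3, a ratio of 1.24 (0.814 to 1.89), and Ifitm3 at 1214 CPM in PBS and 1261 CPM in NaIO3, a ratio of 1.04 (0.949 to 1.14). Rsad2 and Mx1 had 0 UMIs in the NaIO3 fibroblast-gated cells.

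RPE-gated cells had the lowest summed level of the classes with at least 50 cells in each library, apart from rods in PBS. In PBS the sum was 90.9 CPM in rod-gated and 392 CPM in RPE-gated cells. It was 1002 in mural-gated, 1993 in fibroblast-gated, 2034 in surface epithelium-gated, 2127 in macrophage-gated and 2425 in MHC class II-gated cells. The intervals of the fibroblast, surface epithelium and macrophage sums overlapped. Among the 7 PBS classes a member was highest in surface epithelium for 14 genes, in macrophages for 11, in MHC class II cells for 11 and in fibroblasts for 3, and in RPE for 0. The top class was apart from the next by its interval for 6 genes only, Isg15, Irf1, Ddx60, Oasl2 and Oasl1 in surface epithelium and Ifitm3 in fibroblasts. In NaIO3, with 3 such classes, 26 members were highest in surface epithelium (24 with intervals apart), 7 in macrophages (3 apart) and 6 in RPE. The 6 were Ifit3, Rsad2, Mx1, Iigp1, Cmpk2 and Gbp3, of which Cmpk2 (10.1 CPM against 4.62 in macrophages) and Gbp3 (19.0 against 5.78) had intervals apart. Bst2 was highest in macrophages in both libraries, at 654 and 605 CPM.

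The rest of the interferon pathway was read from a list of 46 other genes, all matched. Of the 16 interferon genes, 13 had 0 UMIs in both whole libraries. Ifna13 and Ifne had 1 UMI each in NaIO3, and Ifng 2 in PBS and 5 in NaIO3, so no ligand reached 20 UMIs in any class. Ligand transcripts were thus barely detectable at this depth. In RPE-gated cells 27 of the 46 reached 20 UMIs, 8 were at least 2-fold higher and 0 at least 2-fold lower, against the 12.0% and 2.79% of all genes given above. Of the 8, Ifnlr1, Tmem173, Ikbke and Tlr7 had under 20 PBS UMIs and passed the minimum only with those of NaIO3.

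Among the receptors in RPE-gated cells, Ifnar1 was at a ratio of 1.07 (0.914 to 1.25) and Ifnar2, its partner for type I interferon, at 0.703 (0.624 to 0.792). The interferon gamma receptor chains Ifngr1 and Ifngr2 were at 1.27 (1.10 to 1.46) and 1.91 (1.65 to 2.21). Ifnlr1, the type III chain, had 11 and 18 UMIs and a ratio of 2.60 (1.16 to 6.08). Of the receptors only Ifnlr1 thus reached 2-fold. The kinases Jak1, Jak2 and Tyk2 lay between 1.27 and 1.47. Among sensors and adaptors, Tlr7, an endosomal RNA sensor, had 3 and 40 UMIs and a ratio of 21.2 (6.74 to 107), Tmem173 (STING) 7 and 25 UMIs and 5.67 (2.38 to 15.5), Ikbke 4.13 (1.93 to 9.59) and Trim25, the ligase that acts on RIG-I, 2.12 (1.94 to 2.32). Mavs, the adaptor of RIG-I and MDA5, was at 1.30 (1.12 to 1.5), and Tlr3 at 1.85 (1.64 to 2.07). The feedback inhibitors Socs1 and Socs3 were at 2.80 (1.85 to 4.28) and 2.63 (1.86 to 3.74). Tlr7, Tmem173 and Socs3 in NaIO3 RPE-gated cells stood at 24.5%, 22.3% and 25.1% of their library means, within 2 times the released-RNA mark.

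In macrophage-gated cells 26 of the 46 pathway genes reached 20 UMIs, 2 at least 2-fold higher (Tlr7, 2.47, 0.95 to 9.12, and Ticam1, with 1 PBS UMI) and 6 at least 2-fold lower, beside the 8.22% and 12.8% of all genes. The 6 were Ifngr1 (0.337, 0.248 to 0.467), Irf2 (0.394, 0.248 to 0.660), Socs3 (0.444, 0.251 to 0.855), Samhd1 (0.449, 0.287 to 0.740), Tbk1 (0.474, 0.231 to 1.13) and Tmem173 (0.476, 0.220 to 1.22). In surface epithelium-gated cells 24 reached 20 UMIs, with 8 at least 2-fold higher and 0 lower, beside 17.2% and 3.61% of all genes. Among the 8, Socs3 (7.05, 2.98 to 21.9), Adar (2.75, 1.47 to 5.82), Tlr3 (2.45, 1.01 to 7.71), Samhd1 (2.32, 1.68 to 3.28) and Il10rb (2.15, 1.20 to 4.22) had intervals above 1, and those of Tmem173 and Ifnar2 included 1. Of those named, only Samhd1 had at least 20 PBS UMIs. In fibroblast-gated cells 18 reached 20 UMIs, with 4 higher (among them Ifngr2, Trim25 and Tmem173) and 3 lower (Socs1, Isg20 and Samhd1), beside 11.3% and 13.5% of all genes.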

How the data were processed

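Droplet single-cell RNA of 1 PBS and 1 NaIO3 library was used. The authors deposited UMI counts per gene and barcode, whole numbers that are not normalized, made with Cell Ranger 3.0.2 on mm10 per the submitters' processing notes; annotation release, strand setting and the counting of reads shared by several genes were not given in the sources used here. The libraries held 51055592 and 51168520 UMIs.

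Barcodes with under 500 genes or a mitochondrial share over 25% were removed (231 in PBS, 114 in NaIO3), then the highest Scrublet scores (scanpy 1.11.5) (171 and 132, at a rate that grows with the number of barcodes), since its automatic threshold marked 0 and 3. Cells were gated by the summed UMIs of fixed markers per 10000 (cut 60, with 20 for stromal classes, 100 for rods and 200 for erythrocytes) with at least 3 markers detected. Cells passing several gates (136 and 69) and none (57 and 213) were left out, as were symbols on 2 or more rows from the marker lists. Each library's counts were summed per class, and genes with at least 20 UMIs were compared at 2-fold. Intervals (95%, scipy 1.17.1) are exact Poisson ones for levels, Clopper-Pearson ones for shares and, for ratios, exact binomial ones conditional on the summed count; with 1 library per group no test was made. The floor for a count of 0 was 3 UMIs. Released RNA was subtracted, as an alternative, as the markers' share of each gene's library mean. TMM factors came from edgeR 4.0.16. The ratio code was tested on simulated data. Promoters are RefSeq's table for GRCm38.p6; gene overlaps were read from GENCODE M21.

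All 39 members are named, with levels or counts and their ratios; other genes are the fixed pathway list, of which 1 gene is counted but not reported here, and the 10 genes most concentrated in the highest cells. The members and lists were chosen with earlier results of these data known. Levels are given for classes of at least 50 cells, and the 46 NaIO3 fibroblast-gated cells are an exception.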

Additional observations from a re-analysis of the deposited data

Results flagged for a closer look

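In 6 members the NaIO3 to PBS ratio lay above 1 in RPE-gated cells and below 1 in another class, with both counting intervals apart from 1. The difference between the classes was not tested, since each ratio compares 1 library with 1 library. The mix of cells within the surface epithelium and macrophage classes also differed between the libraries. In surface epithelium-gated cells Irf1 was at 0.366 (0.317 to 0.426) against 3.20 in RPE-gated cells, Gbp2 at 0.445 (0.311 to 0.649) against 4.95, Ddx60 at 0.701 (0.531 to 0.939) against 5.83 and Oasl2 at 0.733 (0.629 to 0.858) against 5.43. In macrophage-gated cells Ifitm3 was at 0.295 (0.245 to 0.357) against 2.36, Trim30a at 0.467 (0.310 to 0.734) against 5.84 and Oasl2 at 0.494 (0.286 to 0.923) against 5.43. Oasl2 is the member lower in both surface epithelium-gated and macrophage-gated cells, the latter from 14 PBS UMIs. In fibroblast-gated cells it was at 1.48 (0.893 to 2.47). These ratios are without TMM scaling, which raised the summed ratio of macrophage-gated cells. In RPE-gated cells the mean level of Oasl2 lay near the mark of released RNA, with 21.3% of its NaIO3 UMIs in the highest 5% of cells. Irf1 and Gbp2 were within 2 times the released-RNA mark in NaIO3 RPE-gated cells. In PBS RPE-gated cells all 6 members were within 2 times the mark of that library. After subtraction of released RNA the ratios in RPE-gated cells were 18.5 for Irf1, 7.74 for Gbp2 and 10.9 for Ddx60. They were 8.21 for Trim30a and 2.84 for Ifitm3, and Oasl2 had no ratio.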

How the results depend on the processing

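The settings tried were clusters in place of gates, gate cuts doubled, a mitochondrial share of at most 10%, no doublet removal, TMM scaling, subtraction of released RNA, other UMI minimums and other fold thresholds. Leaving out the 5% of RPE-gated cells highest in the 39 genes was added after the data were seen. Under these settings no single-gene ratio of 2-fold or more in RPE-gated cells reversed its direction, though Oas1a, Oas3 and Oasl2 had no ratio after subtraction of released RNA. Of the smaller ones, Gbp3 lay at 0.966 with TMM scaling, and Gbp3 at 0.955 and Eif2ak2 at 0.983 without the highest 5% of cells. Of the values that answer a comparison, 54 stayed within counting error or within 1.5 times of the count and 21 moved; of the single-gene ratios in RPE-gated cells, 211 stayed within their interval and 59 moved.

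In RPE-gated cells the number of members at least 2-fold higher (or past the other fold threshold) ranged from 22 to 36. The summed ratio was 2.96 with clusters, 2.96 with doubled cuts, 2.94 with the stricter mitochondrial limit, 2.51 with TMM scaling and 1.81 without the highest 5% of cells. The clusters setting took only clusters named RPE. It thus left out 1260 PBS and 1389 NaIO3 RPE-gated cells that lay in unnamed clusters. In macrophage-gated cells the count was 3 with doubled cuts, 2 with a minimum of 100 UMIs and 0 at 4-fold, and the summed ratio 0.901 with TMM scaling and 0.670 after subtraction of released RNA. In surface epithelium-gated cells the summed ratio was 1.43 with clusters, 1.22 with doubled cuts and 1.14 with TMM scaling, and 4 members were at least 4-fold higher. In fibroblast-gated cells the summed ratio was 1.56 with clusters and 1.43 with doubled cuts, and the count was 8 with a minimum of 1 UMI, 2 with 100 UMIs, 9 at 1.5-fold and 0 at 4-fold. The median share of a member's UMIs in the highest PBS RPE-gated cells was 16% when the highest 10% were taken. Except where fewer cells or genes, or a higher threshold, enter by construction, the cause of these shifts was not tested.

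No paired analysis was possible because each group has 1 library, and for the same reason no replicate could be left out. The 51 macrophage-gated and 78 surface epithelium-gated PBS cells and the 46 fibroblast-gated NaIO3 cells limit the precision, and members with under 5 PBS UMIs have ratios that counting error alone moves several-fold.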
